A study of Mus musculus with 32 samples.

Results

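In BV-2 cells exposed to lipopolysaccharide (LPS), the effect of a miR-7a-5p mimic on gene expression was measured against a scramble mimic. BV-2 cells derive from mouse microglia, the macrophages that reside in the brain, and were immortalised, and LPS is a bacterial cell wall component that activates them. A mimic is a short double-stranded RNA that enters the silencing machinery as the mature microRNA does, and a scramble mimic is a control with no intended target. The comparison was chosen by sample label. It takes the 4 libraries labelled LPS with miR-7a (LPS_miR-7a) and the 4 labelled LPS with the scramble negative control (LPS_scramble), which is 8 of the 32 libraries of the study. All 8 come from wild-type BV-2 cells given LPS at 10 ng/ml for 24 h and a transfected mimic, so none of them is untransfected. The labels place the transfection after LPS and the methods place it before, and the values do not tell which is right. The other libraries used here are 4 each of LPS_miR-29a and LPS_miR-146a, and 4 each of VEH_miR-7a and VEH_scramble, which received vehicle in place of LPS. A single immortalised line limits the model, and the study describes the 4 replicates of each group as independent experiments.

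The macrophage identity of the cells was checked first. Of 20 microglia and macrophage markers 17 were tested, with Csf1r (the colony stimulating factor receptor) at 328.4 to 613.2 CPM (counts scaled to a common library size) and Tyrobp (a signalling adaptor) at 233.2 to 322.8 CPM over the 8 libraries. Markers of resting brain microglia were low: Cx3cr1 reached at most 1.14 CPM, C1qa at most 1.7 CPM and Tmem119 at most 7.09 CPM. The labels call the line a glioblastoma, but the 10 astrocyte and glioma markers were all below the low-count filter, their summed level lay at 0.672 to 0.954 CPM with miR-7a and 0 to 0.674 CPM with scramble, and Gfap was at most 0.135 CPM. The 10 neuron markers were below it too, at summed levels of 0.126 to 0.755 CPM with miR-7a and 0.259 to 0.798 CPM with scramble, and Snap25 was at 0 in all 8 libraries. Of 9 oligodendrocyte, 11 endothelial and fibroblast and 8 lymphocyte markers, 6, 9 and 7 were below the filter. Not all were low: Kdr, listed for endothelial cells, was at 208.9 to 301.4 CPM, and Cnp, listed for oligodendrocytes, at 14.3 to 27.8 CPM. Library totals were 6.95 to 11.8 M counts with miR-7a and 2.71 to 20.6 M with scramble, and 3 counts corresponded to between 0.132 and 1.02 CPM.

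MicroRNAs guide Argonaute proteins to messenger RNAs that pair with their seed, bases 2 to 8 from the 5′ end, and the paired transcripts are destabilised or translated less. The strongest site type in a 3′ untranslated region (3′ UTR) is an 8mer, which pairs with the whole seed and has an A opposite the first base. miR-7 is abundant in neurons and endocrine cells, and reported targets lie in growth factor signalling, among them Irs2 and Pak1. The mature sequence is shown because the site search rests on it, with the seed in capitals. It comes from RefSeq on build GRCm38.p6, where Mir7-1 on chromosome 13 and Mir7-2 on chromosome 7 give the same mature RNA.
mmu-miR-7a-5p: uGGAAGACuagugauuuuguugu

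The 8mer that matches this seed is GTCTTCCA, searched on the transcript strand. It occurred in the 3′ UTR of 727 of 20681 genes with a 3′ UTR (3.52%) and of 449 of 10960 tested ones (4.10%). Below are 30-base windows around the 8mer of 6 genes that were lower with miR-7a, on build GRCm38 and in the direction of the transcript, with the 8mer in capitals. The first 4 were among the called lower 8mer genes with the smallest p, and Ptgs2 and Egr3 were added because results below turn on them.
Cat, catalase, chr2:103454182-103454211, minus strand: acttgcatcatGTCTTCCAaaagtaacttt
Ddit4, an inhibitor of mTOR complex signalling, chr10:59949769-59949798, minus strand: gtgccacctggGTCTTCCAtctagaacctg
Cmtm3, a membrane protein of the chemokine-like factor family, chr8:104347227-104347256, plus strand: tagctagccaaGTCTTCCAttagaggtctg
Praf2, a membrane trafficking protein, chrX:7730720-7730749, plus strand: gggactcactaGTCTTCCAtacgtcaaagc
Ptgs2, cyclooxygenase-2, chr1:150106885-150106914, plus strand: aatattgatatGTCTTCCAgcccattgaac
Egr3, an immediate-early transcription factor, chr14:70080605-70080634, plus strand: cggaggagatgGTCTTCCAtctgctcctta

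Genes with an 8mer were on balance lower in the cells with miR-7a. The median log2 fold change of the 449 tested genes with an 8mer was −0.08, with 59.5% of them below 0, against a median of 0.02 and 46.6% below 0 for the 8147 genes with no 7mer or 8mer. The class with a 7mer that pairs with the whole seed but lacks the A (GTCTTCC, 1070 genes) had a median of 0.00, and the class with TCTTCCA (1294 genes) had 0.05. Genes with an 8mer have longer 3′ UTRs, 2314 bases in the median against 876 for genes without a 7mer or 8mer. Within 3′ UTRs of up to 1000 bases, the medians were −0.19 for 66 genes with an 8mer and −0.02 for 4463 genes without a 7mer or 8mer. From 1000 to 2000 bases they were −0.10 (118 genes) and 0.05 (2025 genes), and over 2000 bases they were −0.02 (265 genes) and 0.09 (1659 genes). The 17 genes with 2 or more 8mers had a median of −0.17, and 0 of them passed the test for single genes.

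To compare libraries rather than genes, an 8mer score was computed for each one. It is the mean log2 level of the 8mer genes, each centred on its mean over the 8 libraries, minus the same mean for genes without a 7mer or 8mer. The score was −0.0829, −0.0140, −0.0965 and −0.0447 in LPS_miR-7a replicates 1 to 4 and 0.0401, 0.0854, 0.0431 and 0.0695 in the LPS_scramble replicates. All 4 miR-7a libraries lay below all 4 scramble libraries. The difference of the means was −0.119, with SDs of 0.0375 and 0.0217 (n = 4 each), and an exact permutation test (two-sided) gave p = 0.0286, the smallest possible for 4 against 4 libraries. As pairs of the same number the exact p was 0.125, again the smallest possible. The same score for the 8mers of miR-29a and of miR-146a, which were not transfected here, was higher with miR-7a by 0.04 each, and the groups overlapped in both, although all 4 pairs of the same number were higher with miR-7a.

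**Figure D1:**
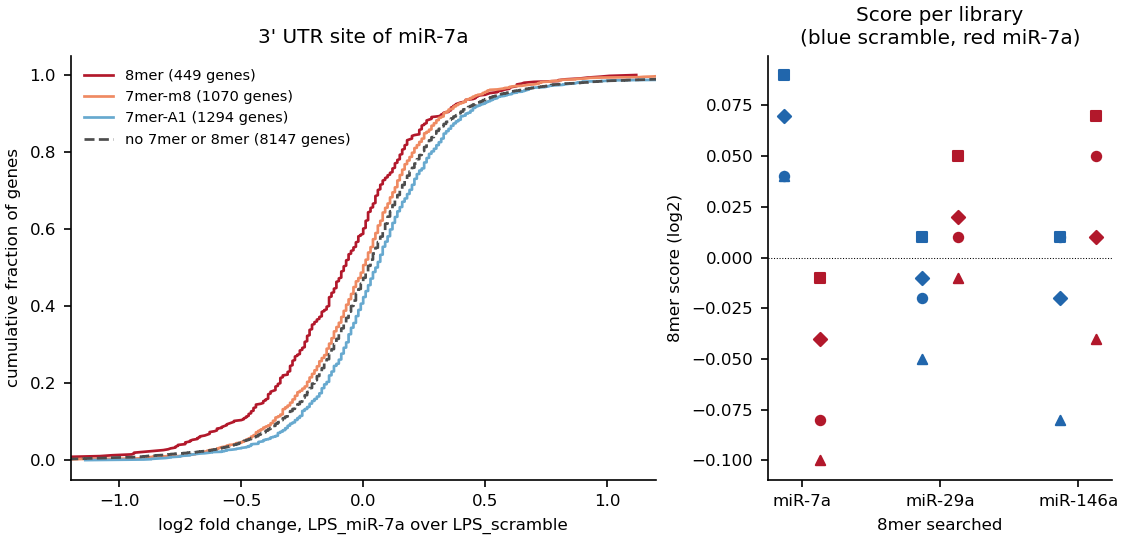
Left, cumulative fraction of genes against the log2 fold change of LPS_miR-7a over LPS_scramble, by the strongest miR-7a site in the 3′ UTR; the curve of the 449 genes with an 8mer lies left of the others over most of its range. Right, the 8mer score (log2) of each library for the sites of 3 microRNAs, marker shape giving the replicate number; for miR-7a sites the red points (miR-7a mimic) lie below the blue points (scramble), from −0.0965 to −0.0140 against 0.0401 to 0.0854.

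Single genes moved in both directions with the mimic. Bulk values cannot tell fewer cells of a kind from less RNA per cell. Of 13111 genes tested with limma voom, 384 (2.93%) were called, that is, had an adjusted p below 0.05 and an absolute log2 fold change above 0.3. Of these, 215 (1.64%) were higher and 169 (1.29%) lower with miR-7a, and 110 of the higher and 81 of the lower genes moved by more than 1 on the log2 scale. Same-numbered libraries deviated together, and a fit blocked on replicate number called 2053 genes (15.7%), 964 (7.35%) higher and 1089 (8.31%) lower. All 384 genes were among them. The 4 and 4 CPM values did not overlap for 744 genes (5.67%) that were higher and 760 (5.80%) that were lower, and for 373 of the 384. The number of calls also rested on single libraries: without LPS_scramble replicate 4, the deepest library, 64 genes were called, without LPS_scramble replicates 1 or 3, 149 and 130, and without LPS_miR-7a replicates 2 or 3, 134 and 106. Of 69 called genes chosen by a rule for naming, 23 were called in all 8 fits with a library left out.

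**Figure D2:**
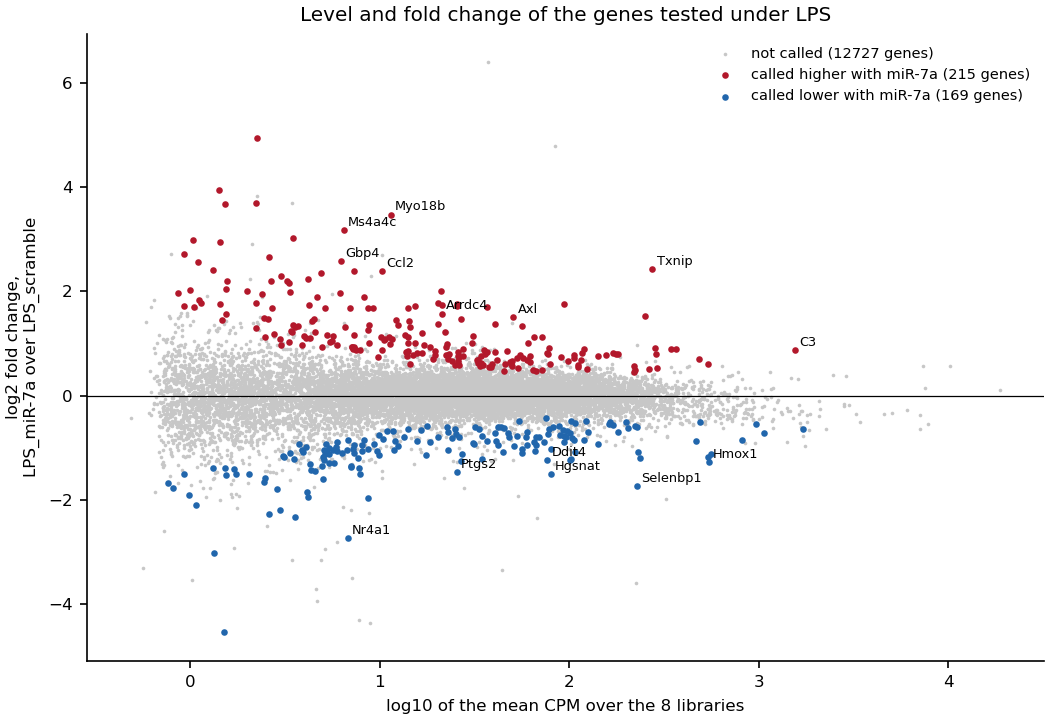
Log2 fold change of LPS_miR-7a over LPS_scramble against the log10 of the mean CPM over the 8 libraries, 1 point for each of the 13111 genes tested. Red points are the 215 genes called higher with miR-7a and blue points the 169 called lower; 14 genes described in the text are named, with Txnip the red point at a log2 fold change of 2.42.

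The genes of glucose handling held the clearest rise and several falls. Txnip encodes a thioredoxin-binding alpha-arrestin that restrains glucose uptake and is induced when glucose metabolites accumulate. Its level was 113.6, 75.7, 94.8 and 72.4 CPM in LPS_scramble replicates 1 to 4 and 447.6, 462.9, 448.9 and 480.5 CPM in LPS_miR-7a. The miR-7a values were close to each other and far above every scramble value. It rose by 2.42 on the log2 scale (SE 0.15, limma adjusted p 2.43e-05). Gm15441, an antisense RNA on the opposite strand, rested at a mean of 1.2 CPM with miR-7a. Arrdc4, another alpha-arrestin, was 11.6, 13.1, 10.4 and 8.49 CPM with scramble and 34.6, 31.8, 31.6 and 27.9 CPM with miR-7a, again without overlap. It rose by a log2 fold change of 1.57 (SE 0.16, limma adjusted p 0.00177). Arrdc3, of the same family, fell (log2 fold change −0.79).

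The glucose transporter gene Slc2a1 was 262.3, 361.3, 240.4 and 373.6 CPM with scramble and 108.4, 186.6, 109.7 and 191.2 CPM with miR-7a. In both groups replicates 2 and 4 were higher than 1 and 3, and every pair was lower with miR-7a (log2 fold change −1.08, SE 0.22, limma adjusted p 0.0290). The glycolytic enzymes Pgk1, from 2077 ± 229.2 to 1329 ± 165.5 CPM (SD, n = 4), and Gpi1, with a log2 fold change of −0.71, also fell. Of the 26 listed genes of alpha-arrestins, glucose uptake and glycolysis, all tested, 2 were called higher and 4 lower, where 1.64% of all genes were higher and 1.29% lower. Their median log2 fold change was −0.30 against 0.01 over all genes. With the replicate block 2 were higher and 13 lower, against 7.35% and 8.31% of all genes. The lower count fell to 0 without LPS_scramble replicate 1, 2 or 4 or LPS_miR-7a replicate 3, and to 1 without LPS_scramble replicate 3 or LPS_miR-7a replicates 1 or 2, while Txnip and Arrdc4 were called with any library left out. Outside the list, Hilpda, a lipid droplet protein induced by hypoxia, fell from 47.9 ± 11.4 to 21.5 ± 8.18 CPM (SD, n = 4), and Ddit4, also induced by hypoxia and energy stress, from 106.9 ± 10.8 to 46.3 ± 12.6 CPM (SD, n = 4). Hilpda lost its call on leaving out any library but LPS_scramble replicate 3 or LPS_miR-7a replicate 4, and Ddit4 was called with any library left out.

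Some of the genes induced by type I interferon, which arm cells against viruses, rose with miR-7a. Of 42 listed genes 38 were tested, 11 rose and 0 fell, where 1.64% of all genes rose and 1.29% fell. The median log2 fold change was 0.67, with 33 of 38 above 0. With the replicate block 30 rose and 0 fell, against 7.35% and 8.31% of all genes. The count of 11 fell to 1 without LPS_scramble replicate 4 and to 3 to 7 without any of LPS_scramble replicates 1, 2 and 3 or LPS_miR-7a replicates 1, 2 and 3, and rose to 14 without LPS_miR-7a replicate 4. Rsad2, an antiviral radical enzyme, was 135, 113.8, 179.2 and 83.3 CPM with scramble and 358.3, 330.1, 592.4 and 221.2 CPM with miR-7a. Replicate 3 was the highest and replicate 4 the lowest in both groups, and the groups did not overlap (log2 fold change 1.52, SE 0.29, limma adjusted p 0.0210). Ifi44 rose from 11.6 ± 2.61 to 39.2 ± 14.5 CPM (SD, n = 4, log2 fold change 1.76), Zbp1, a sensor of Z-form nucleic acids, by 1.67, and Trim30a by 1.34. Ifit3, Cmpk2, Herc6, Phf11d, Xaf1, Ddx58 and Lgals3bp were the other members called. Isg15, a ubiquitin-like modifier, had a log2 fold change of 0.91 and Irf7, the factor that amplifies the response, 0.54, and neither was called (limma adjusted p 0.322 and 0.169), but both were with the block.

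Guanylate-binding proteins and immunity-related GTPases, which attack the vacuoles of intracellular pathogens, also included genes that rose. Of 8 guanylate-binding proteins tested 4 rose and 0 fell (median 1.54), and of 10 immunity-related GTPases 4 rose and 0 fell (median 0.98). Of all genes 1.64% rose and 1.29% fell. With the replicate block 7 and 9 of the families rose, where 7.35% of all genes rose. For the immunity-related GTPases the count fell to 0 without LPS_miR-7a replicate 2 or without LPS_scramble replicate 1, 3 or 4, to 1 or 2 without LPS_miR-7a replicates 1 or 3 or LPS_scramble replicate 2, and rose to 6 without LPS_miR-7a replicate 4. For the guanylate-binding proteins it fell to 1 without LPS_scramble replicate 4 and to 2 without LPS_miR-7a replicate 3. Gbp7 was 14.3, 8.57, 13.3 and 10.9 CPM with scramble and 49.4, 33.4, 52.5 and 21.2 CPM with miR-7a, so that replicate 4 moved least (log2 fold change 1.71, SE 0.29, limma adjusted p 0.0139). Gbp4 rose by 2.58, Gbp6 by 1.38 and Gbp11 by 3.68 on the log2 scale, the last from 0.267 ± 0.218 to 2.78 ± 1.15 CPM (SD, n = 4). Irgm1, a regulator of the other GTPases, rose from 54.9 ± 8.86 to 98.2 ± 21.7 CPM (SD, n = 4), and Tgtp2, Iigp1 and Gm4951 also rose. Genes of these families are near-identical to one another, so reads may have been divided among copies, and Trim30a and Trim30d share this limit.

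Of 20 interferon receptors, kinases and transcription factors tested 0 were called by limma in either direction, where 2.93% of all genes were called and 2294 had an unadjusted p below 0.05. Their median log2 fold change was −0.06, against 0.01 over all genes. With the replicate block 7 were higher and 1 lower, and whether they differed from the induced genes was not tested. The summed level of the 38 interferon-induced genes was 3720, 3854, 5326 and 3387 CPM in LPS_miR-7a replicates 1 to 4 and 2582, 2790, 3288 and 2376 CPM in LPS_scramble, so the lowest miR-7a library lay above the highest scramble library.

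**Figure D3:**
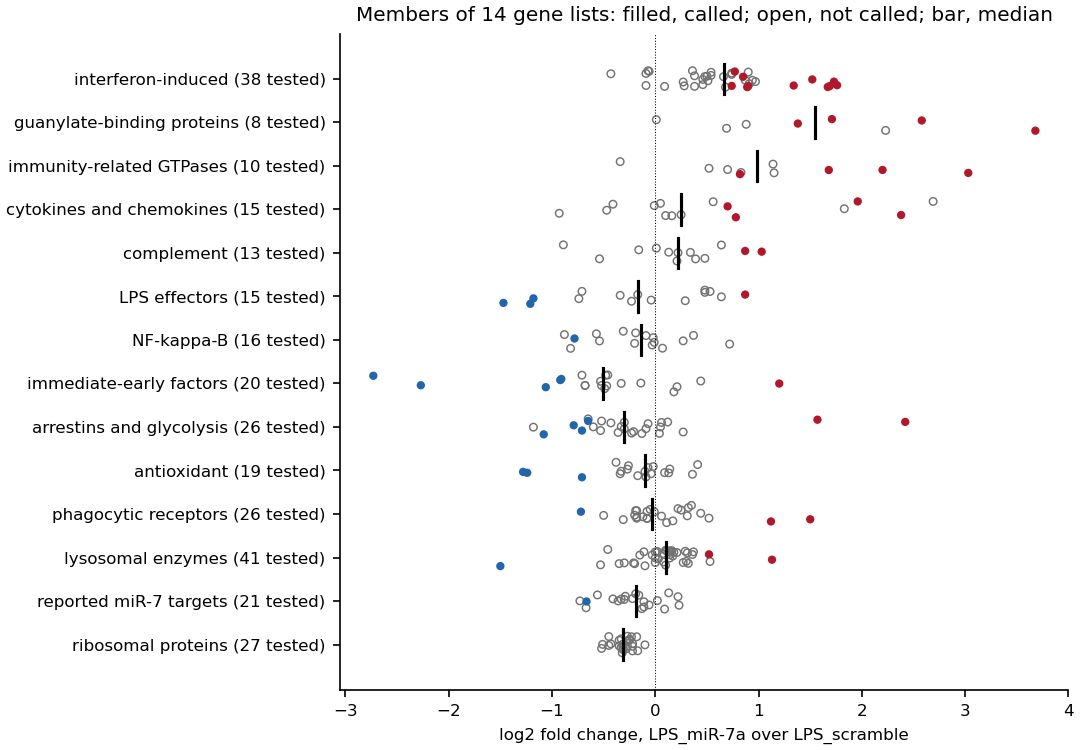
Log2 fold change of LPS_miR-7a over LPS_scramble for the tested members of 14 gene lists, 1 point for each gene; filled red and blue points are genes called higher and lower, open points were not called, and the bar is the median of the list. The interferon-induced genes (median 0.67) and the 2 GTPase families (1.54 and 0.98) lie mostly right of 0, and the immediate-early factors (−0.50) and the 27 ribosomal proteins (−0.31) mostly left.

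Several secreted and surface proteins of activated macrophages rose too. Ccl2, a chemokine that recruits monocytes, was 4.76, 1.94, 6.54 and 1.58 CPM with scramble and 25.4, 12.4, 21.9 and 7.07 CPM with miR-7a, so that the lowest miR-7a value was close to the highest scramble value (log2 fold change 2.38, SE 0.52, limma adjusted p 0.0362). Its call was lost on leaving out any library but LPS_scramble replicate 3 or LPS_miR-7a replicate 4. Csf1, the growth factor of the macrophage lineage, rose from 367.7 ± 9.29 to 604.0 ± 100.1 CPM, and Il1rn, the interleukin-1 receptor antagonist, from 77.1 ± 15.8 to 134.4 ± 11.1 CPM (SD, n = 4 each). Il1rn lost its call without LPS_scramble replicate 3 or 4 or LPS_miR-7a replicate 2 or 3, and Csf1 without LPS_scramble replicate 1, 3 or 4 or LPS_miR-7a replicate 2 or 3. Il18bp, which neutralises interleukin-18, rose by 2.39 on the log2 scale and Ccl24, an eosinophil chemokine, by 1.89. Ccl24 lost its call without LPS_scramble replicate 1, 2 or 4 or LPS_miR-7a replicate 3, and Il18bp was called with any library left out. Of 15 cytokines and chemokines tested 4 rose and 0 fell (median 0.25), where 1.64% of all genes rose and 1.29% fell. With the replicate block 7 rose and 2 fell, against 7.35% and 8.31% of all genes. The 4 became 0 without LPS_miR-7a replicate 2 or 3 or LPS_scramble replicate 4, 1 without LPS_scramble replicate 1 or 3, and 2 without LPS_miR-7a replicate 1 or LPS_scramble replicate 2. C3, the central complement component, was 1037, 1231, 934.6 and 1212 CPM with scramble and 1748, 2269, 1981 and 2051 CPM with miR-7a, with no overlap (log2 fold change 0.87, SE 0.13, limma adjusted p 0.00830).

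Among receptors, Axl, which binds apoptotic cells through a bridging ligand, was 26.9, 37.6, 19.1 and 23.8 CPM with scramble and 58.2, 94.9, 76.1 and 68.4 CPM with miR-7a. Replicate 2 was highest in both groups, and every miR-7a value exceeded every scramble value (log2 fold change 1.5, SE 0.21, limma adjusted p 0.00552). Havcr2, an inhibitory receptor also known as TIM-3, rose from 8.82 ± 0.848 to 19.3 ± 2.32 CPM, and Slamf8, a surface protein that restrains macrophage activation, from 1.60 ± 0.289 to 8.21 ± 2.12 CPM (SD, n = 4 each). Cd14, the LPS co-receptor, fell from 58.2 ± 7.12 to 36.2 ± 9.04 CPM (SD, n = 4), although the highest miR-7a library, at 49.4 CPM, touched the lowest scramble library, at 49.3 CPM. Adgre1, the macrophage marker F4/80, fell from 1149 ± 113.8 to 786.7 ± 36.2 CPM (SD, n = 4), and was called only without LPS_miR-7a replicate 1 or 4 among the 8 fits with a library left out. Of 26 scavenger, Fc and other phagocytic receptors tested 2 rose and 1 fell, with a median of −0.03, where 1.64% of all genes rose and 1.29% fell. The replicate block gave 7 that rose and 2 that fell, against 7.35% and 8.31% of all genes. The 1 that fell, Cd14, was called only without LPS_miR-7a replicate 4 among the 8 fits with a library left out.

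Myo18b, an unconventional myosin of striated muscle, had the highest fold change among the called genes that reached a mean of 5 CPM in either group. It was 1.02, 1.88, 2.49 and 1.72 CPM with scramble and 15.1, 22, 21.4 and 25.4 CPM with miR-7a (log2 fold change 3.47, SE 0.26, limma adjusted p 0.000143), and 1700095B10Rik overlaps it on the opposite strand. Ms4a4c, a membrane protein of the MS4A family, went from 1.31 ± 0.587 to 11.6 ± 5.74 CPM (SD, n = 4) and the non-classical MHC gene H2-M2 from 1.40 ± 0.0731 to 6.98 ± 1.51 CPM (SD, n = 4), and Ms4a4c was not called without LPS_scramble replicate 4. The 3 genes had no 6mer, 7mer or 8mer for miR-7a in their 3′ UTR, nor did Txnip, Arrdc4 or C3.

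Several products that LPS induces were lower, in contrast to C3. Ptgs2, cyclooxygenase-2, which starts prostaglandin synthesis and carries the 8mer shown above, was 38.1, 41.1, 26.1 and 42.2 CPM with scramble and 17.3, 13.2, 7.16 and 18.8 CPM with miR-7a. Replicate 3 was lowest in both groups, and the groups did not overlap (log2 fold change −1.47, SE 0.28, limma adjusted p 0.0217). Its call was lost without LPS_scramble replicate 1 or 4 or LPS_miR-7a replicate 2. Saa3, an acute-phase apolipoprotein, was 813.3, 618.8, 962.3 and 604.3 CPM with scramble and 312.9, 277.8, 316.4 and 411.6 CPM with miR-7a, and Cp, the copper oxidase ceruloplasmin, 168.4, 123.6, 151.8 and 124.5 against 64.0, 61.8, 47.6 and 71.2 CPM. Both fell without overlap (log2 fold change −1.18 and −1.21, limma adjusted p 0.00761 and 0.00437). Of 15 LPS effectors tested 1 rose and 3 fell, where 1.64% of all genes rose and 1.29% fell. With the replicate block 5 rose and 5 fell, against 7.35% and 8.31% of all genes. Nos2, the inducible nitric oxide synthase, moved by −0.74 on the log2 scale without being called (limma adjusted p 0.232). Tnf itself, at 16.1 ± 3.97 CPM with scramble and 16.3 ± 2.01 CPM with miR-7a (SD, n = 4), had a log2 fold change of 0.10 (SE 0.20, limma adjusted p 0.844). Cebpb, a transcription factor of the acute-phase response, fell by 0.85 on the log2 scale, and Tnfaip3, the NF-kappa-B feedback inhibitor A20, which also has an 8mer, by 0.79. Cebpb lost its call without LPS_scramble replicate 1 or 4 or LPS_miR-7a replicate 2 or 3. Of 16 NF-kappa-B genes tested Tnfaip3 was the 1 called, where 2.93% of all genes were called, and its call was lost on leaving out any library other than LPS_miR-7a replicate 4. The replicate block called 1 higher and 5 lower, against 7.35% and 8.31% of all genes.

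Several immediate-early transcription factors, which respond within minutes to growth factor and stress signals, fell. Of 20 tested 5 fell and 1 rose, with a median of −0.50, where 1.29% of all genes fell and 1.64% rose. With the replicate block 13 fell and 2 rose, against 8.31% and 7.35% of all genes. Nr4a1, an orphan nuclear receptor, was 10.5, 10.2, 16 and 10.2 CPM with scramble and 1.01, 1.43, 2.31 and 2.20 CPM with miR-7a. Replicate 3 of the scramble group stood above the others, and without it the gene was still called (log2 fold change −2.73, SE 0.30, limma adjusted p 0.00222). Egr3 was 3.74, 4.08, 6.74 and 2.73 CPM with scramble and 0.503, 0.477, 0.970 and 1.44 CPM with miR-7a (log2 fold change −2.27, SE 0.43, limma adjusted p 0.0221), and lost its call without LPS_miR-7a replicate 1, 2 or 3. Ier2, Junb and Btg2 fell by 0.91, 0.92 and 1.06 on the log2 scale. Jun had a log2 fold change of −0.53 and Fos of −0.68, and neither was called (limma adjusted p 0.0608 and 0.246), but both were with the block. Klf10, a transcription factor induced by transforming growth factor beta, went the other way, from 10.3 ± 1.35 to 22.9 ± 2.03 CPM (SD, n = 4). The count of 5 fell to between 1 and 3 without any library but LPS_miR-7a replicate 4, and rose to 7 without that one.

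Genes of the defence against oxidants fell in part. Hmox1, heme oxygenase-1, was 685.7, 830.3, 739.3 and 803.1 CPM with scramble and 215.0, 313.2, 319.4 and 448.6 CPM with miR-7a, where replicate 1 was lowest (log2 fold change −1.28, SE 0.19, limma adjusted p 0.00700). Cat, the peroxisomal enzyme that breaks down hydrogen peroxide and an 8mer gene, was 132, 131.4, 148.9 and 153.5 CPM with scramble and 51.9, 59.5, 54.4 and 76.5 CPM with miR-7a, without overlap (log2 fold change −1.24, SE 0.14, limma adjusted p 0.00250). Sod1, the cytosolic superoxide dismutase, fell from 125.3 ± 21.0 to 76.5 ± 12.2 CPM (SD, n = 4). Of 19 NRF2 and antioxidant genes tested 3 fell and 0 rose, with a median of −0.10, where 1.29% of all genes fell and 1.64% rose. With the replicate block 6 fell and 2 rose, against 8.31% and 7.35% of all genes. Sod1 was called only without LPS_scramble replicate 2 among the 8 fits with a library left out. Outside this list, Selenbp1, which oxidises methanethiol, was 351.7, 326.6, 338.4 and 362.3 CPM with scramble and 79.0, 108.1, 72.6 and 180.5 CPM with miR-7a, and the scramble values were far more alike than the miR-7a values (log2 fold change −1.74, SE 0.24, limma adjusted p 0.00539). Mt1, a metal-binding metallothionein of a family with close copies, fell from 328.6 ± 86.5 to 141.2 ± 28.4 CPM (SD, n = 4), and Macrod1, a mitochondrial ADP-ribosyl hydrolase, from 11.8 ± 3.11 to 3.85 ± 1.12 CPM (SD, n = 4). Both lost their call without LPS_miR-7a replicate 3, and Mt1 also without LPS_scramble replicate 4.

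**Figure D4:**
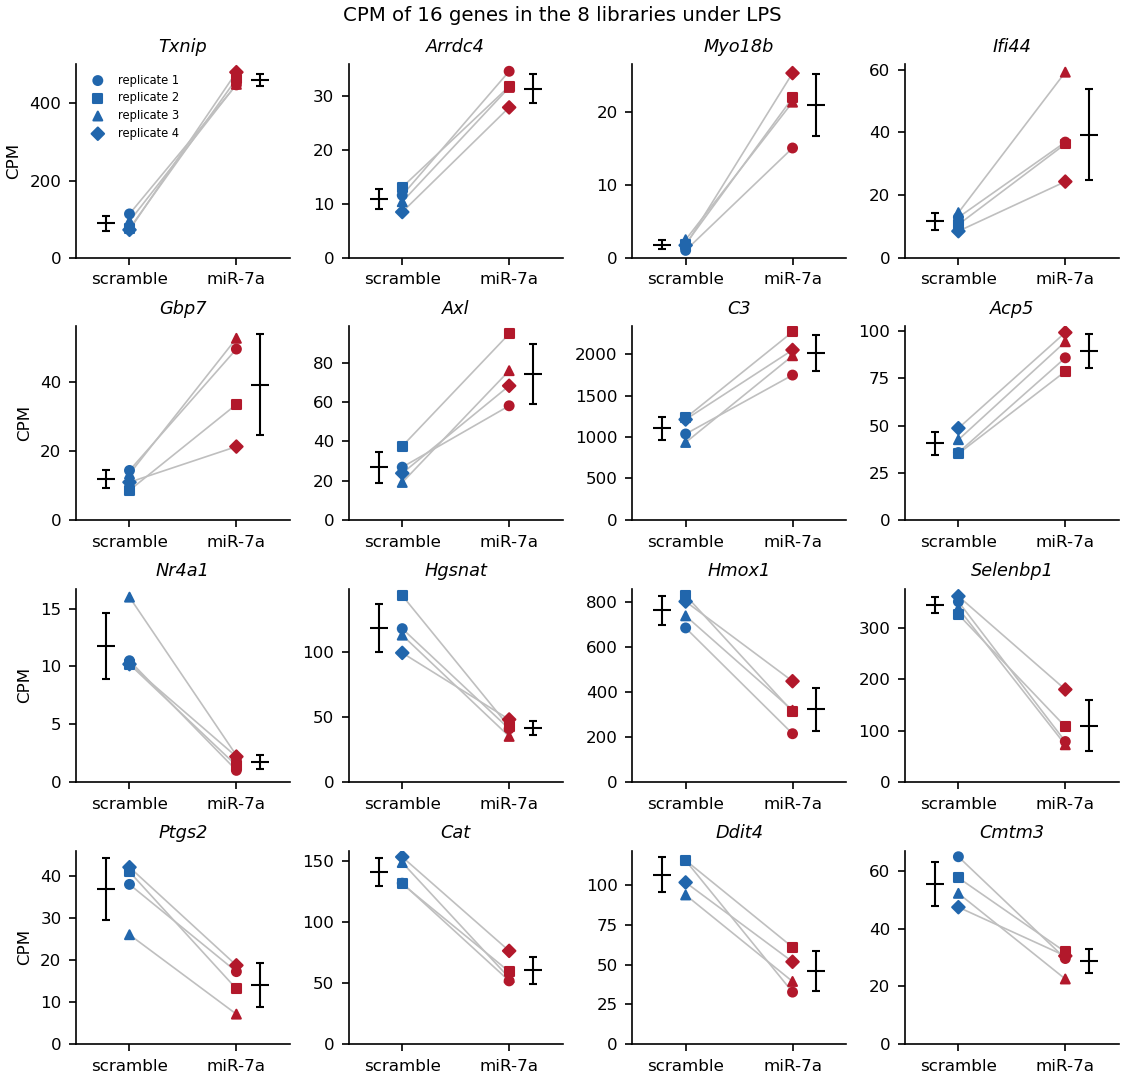
CPM of 16 genes in the 8 libraries, scramble in blue and miR-7a in red, with marker shape for the replicate number, grey lines joining same-numbered libraries and a black bar for the mean and SD of 4 libraries; each axis starts at 0. In all 16 genes the 4 red points lie on 1 side of the 4 blue points, for Txnip at 447.6 to 480.5 against 72.4 to 113.6 CPM and for Hgsnat at 35 to 48.0 against 99.1 to 143.1 CPM.

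The study asked about phagocytosis, the uptake of particles into acidified lysosomes. Of 28 phagocytosis genes that the study lists as targets of its 3 microRNAs, 26 were tested, 3 rose and 0 fell, with a median of 0.15, where 1.64% of all genes rose and 1.29% fell. With the replicate block 7 rose and 1 fell, against 7.35% and 8.31% of all genes. Cd164, a sialomucin found in endosomes, was 200, 203.6, 216.2 and 215.0 CPM with scramble and 437.5, 350.5, 341.1 and 333.1 CPM with miR-7a, where replicate 1 stood above the rest (log2 fold change 0.80, SE 0.12, limma adjusted p 0.00839). Gnptg, part of the enzyme that tags lysosomal hydrolases, rose by 0.93 on the log2 scale. The count of 3 became 2 without LPS_scramble replicate 2 and 1 without any other library but LPS_miR-7a replicate 1, and Cd164 was called in each of these fits. Gnptg was called in none of the 8 fits with a library left out, so the 3 genes without LPS_miR-7a replicate 1 were not the same 3.

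Lysosomal hydrolases held a pair of large opposite changes. Of 41 tested 2 rose and 1 fell, where 2.93% of all genes were called (15.7% with the replicate block), with a median of 0.10, and with the replicate block 6 rose and 4 fell. The 2 became 3 without LPS_miR-7a replicate 1 and 1 without any other library but LPS_scramble replicate 2, and the 1 became 2 without LPS_miR-7a replicate 4. Hgsnat, which acetylates heparan sulfate in the lysosome, was 117.7, 143.1, 112.7 and 99.1 CPM with scramble and 40.8, 42.4, 35 and 48.0 CPM with miR-7a, without overlap (log2 fold change −1.5, SE 0.15, limma adjusted p 0.00133), and it had no seed match in its 3′ UTR. Acp5, tartrate-resistant acid phosphatase, was 35.7, 35.1, 42.5 and 48.6 CPM with scramble and 85.9, 78.7, 94.4 and 99.3 CPM with miR-7a (log2 fold change 1.13, SE 0.14, limma adjusted p 0.00384), and 6530413G14Rik overlaps it on the opposite strand. Of 16 cathepsins and cystatins Ctsf was the 1 called and fell by 0.80 on the log2 scale, where 2.93% of all genes were called. With the replicate block 6 rose and 3 fell, against 7.35% and 8.31% of all genes. Ctsf lost its call without LPS_miR-7a replicate 3. Of 17 subunits of the vacuolar proton pump Atp6v0a1 rose by 0.56 and Atp6v1e1 fell by 0.69, where 2.93% of all genes were called. With the block 5 rose and 1 fell, against 7.35% and 8.31% of all genes. Atp6v0a1 lost its call on leaving out any library but LPS_miR-7a replicate 1, and Atp6v1e1 without LPS_scramble replicate 1, 3 or 4 or LPS_miR-7a replicate 2 or 3. Of 22 autophagy genes 0 were called by limma in either direction, with 1 higher and 1 lower with the block, where 2.93% of all genes were called without and 15.7% with it. Of 26 genes the study lists as rising in disease-associated microglia 2 rose (Axl and Csf1) and 0 fell, and with the block 9 rose and 2 fell. Of 12 homeostatic genes 1 rose, Txnip, and with the block 3 rose and 1 fell. For both lists, the shares over all genes were 1.64% that rose and 1.29% that fell, and 7.35% and 8.31% with the block.

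The 8mer was more frequent among the genes called lower. Of 116 of them with a 3′ UTR, 14 (12.1%) had an 8mer, against 5 of 202 called higher (2.48%) and 4.10% of those tested. With the replicate block 75 of 794 lower genes (9.45%) and 23 of 914 higher genes (2.52%) had one. Among the 14 were Arhgef12, Cat, Cmtm3, Cnppd1, Ddit4, Egr3, Igsf8, Praf2, Ptgs2, Tmem230, Tnfaip3 and Zfand1. The 5 called higher despite an 8mer were Celsr1, Ddx60, Fcrl1, Mtmr12 and Sft2d2. Of the 66 tested 8mer genes with a 3′ UTR of up to 1000 bases 9 were lower (13.6%), against 1.21% of those of that length without a 7mer or 8mer. Cmtm3 was 65.0, 57.7, 52.3 and 47.5 CPM with scramble and 29.7, 32, 22.6 and 30.6 CPM with miR-7a (log2 fold change −0.94, SE 0.15, limma adjusted p 0.0110). Praf2 fell as evenly, from 10.6 ± 0.572 to 5.42 ± 0.779 CPM (SD, n = 4 each), and lost its call without LPS_scramble replicate 4 or LPS_miR-7a replicate 2 or 3.

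Of 24 genes reported elsewhere as miR-7 targets 21 were tested, 1 fell and 0 rose, where 1.29% of all genes fell. The median was −0.19 against 0.01 over all genes, with 16 of 21 below 0. With the replicate block 6 fell, against 8.31% of all genes. Without LPS_miR-7a replicate 3 or LPS_scramble replicates 3 or 4 the count with no block was 0. Spata2 and Pik3cd, with log2 fold changes of −0.73 and −0.67, missed the threshold (limma adjusted p 0.0582 and 0.0692) and were called with the block. Irs2, an insulin receptor substrate with an 8mer, stood at −0.06 (SE 0.27) on the log2 scale, and Pak1, a kinase without a site, at −0.11 (SE 0.11) (limma adjusted p 0.932 and 0.651). The microRNA genes themselves gave no check of the transfection, because these libraries hold long RNA: Mir7-1 was at most 0.382 CPM, and Mir7b and Mir7-2 had 0 counts in all 8 libraries.

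The cytosolic ribosomal proteins lay below 0 as a group without any passing the test. All 27 had a negative log2 fold change, from −0.52 to −0.10 with a median of −0.31. By limma 0 were called, and 13 were lower with the block, where 8.31% of all genes were lower. Their summed level was 21223, 15622, 19286 and 21640 CPM with miR-7a and 24806, 20706, 26967 and 23636 CPM with scramble, so the groups overlapped while miR-7a was lower in all 4 pairs of the same number. The 9 mitochondrially encoded genes tested had a median of −0.47, with 0 called and 4 lower with the block, and their share of all counts was 0.853% to 1.99% against 0.967% to 2.54% (two-sided exact permutation p 0.200). That share was lower with miR-7a in all 4 pairs, for which the exact paired permutation p was 0.125, the smallest possible. Pseudogenes were frequent among the lower calls: 42 of the 169 were pseudogenes against 4 of the 215 higher ones, out of 734 pseudogenes tested. Pseudogenes share reads with their parent genes and are uncertain here.

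The same mimic under vehicle gives the test of whether the response differed with LPS. Of 12231 genes 1 (0.00818%) was called for the difference between the responses, Txnip, with 675 at an unadjusted p below 0.05. With the replicate block 29 were called, although same-numbered vehicle libraries hardly deviated together. Txnip was 1088, 877.7, 913.2 and 645.5 CPM in VEH_scramble and 771.1, 822.4, 822.8 and 924.3 CPM in VEH_miR-7a, where the groups overlapped. LPS_scramble, at 89.1 ± 19.1 CPM, was far below either vehicle group, and LPS_miR-7a, at 460.0 ± 15.4 CPM (SD, n = 4 each), lay between. The difference between the responses was 2.51 on the log2 scale with an SE of 0.22 (limma adjusted p 1.70e-05), and the gene was called with any one of the libraries left out. Arrdc4 was also lowest in LPS_scramble, with 27.4 ± 6.42 CPM in VEH_scramble, 30 ± 3.13 in VEH_miR-7a, 10.9 ± 1.94 in LPS_scramble and 31.4 ± 2.73 in LPS_miR-7a (SD, n = 4 each), and had a difference of 1.42 that missed the threshold (limma adjusted p 0.101).

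Slc37a2, a sugar phosphate transporter of macrophages, was 184.9 ± 18.6 CPM in VEH_scramble, 147.5 ± 16.5 in VEH_miR-7a, 83.5 ± 13.5 in LPS_scramble and 154.5 ± 21.3 in LPS_miR-7a (SD, n = 4 each), a difference of 1.24 (SE 0.21, limma adjusted p 0.0706). Csf1 had a difference of 1.02, Klhl38 of 1.33, Angptl2 of 1.36 and Cd93 of 1.86, with limma adjusted p of 0.0805 to 0.101. With the replicate block these genes and Slc37a2 had limma adjusted p of 0.00725 to 0.0464. For Cat and Nr4a1 the differences were 0.02 and 0.13, with limma adjusted p of 0.996 and 0.987. In VEH_miR-7a replicates 2 to 4 structural RNAs took 50.1% to 51.4% of the counts, against 6.09% in replicate 1, and without replicate 1 143 genes were called for the difference. With VEH_miR-7a as replicate 1 alone, a fit chosen after seeing the data in which that library is taken to vary like the other groups, 1 of 13772 genes was called, again Txnip (difference 2.59, SE 0.32, limma adjusted p 0.0120).

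**Figure D5:**
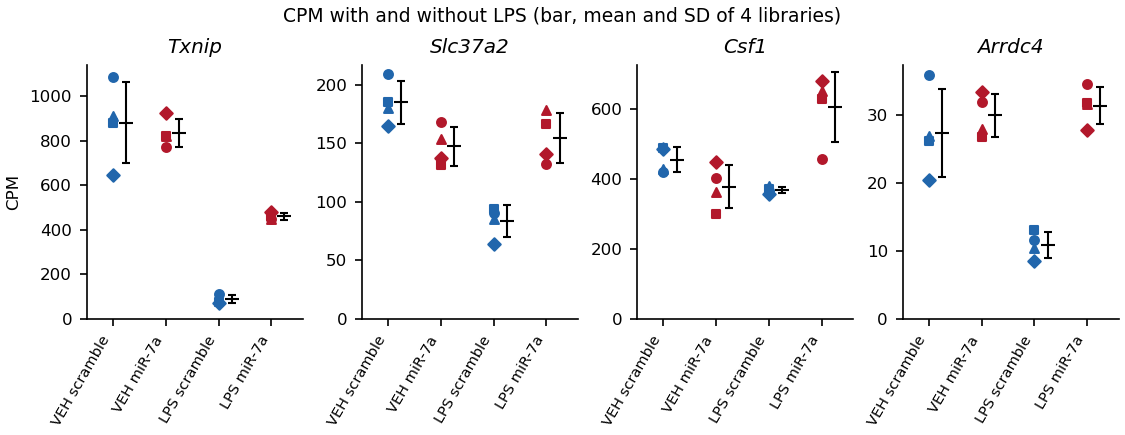
CPM of Txnip, Slc37a2, Csf1 and Arrdc4 in the 4 libraries of each of VEH_scramble, VEH_miR-7a, LPS_scramble and LPS_miR-7a, with marker shape for the replicate number, red for miR-7a and blue for scramble, and a black bar for the mean and SD. LPS_scramble is lowest for Txnip, Slc37a2 and Arrdc4 (89.1, 83.5 and 10.9 CPM in the mean), and Csf1 is highest in LPS_miR-7a (604.0 CPM).

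The other mimics under LPS show which values were shared among mimics and which were not. Of the genes called against scramble, 207 higher and 150 lower ones were tested against both other mimics. Of these, 42 and 24 were called in the same direction against both. Against LPS_miR-29a, 464 of 12979 genes were called (3.58%), 294 (2.27%) higher and 170 (1.31%) lower with miR-7a. The replicate block called 1548 there, 879 higher and 669 lower. Against LPS_miR-146a, 785 of 12605 were called (6.23%), 466 (3.70%) higher and 319 (2.53%) lower, and 2605 (20.7%) with the replicate block. Txnip was 92.6 to 193.5 CPM or 52.7 to 250.5 CPM in the 2 groups, below every LPS_miR-7a library, and miR-7a was higher by 1.99 and 1.61 on the log2 scale against one and the other, with limma adjusted p of 0.000587 against miR-29a and 0.0292 against miR-146a. Myo18b was higher by 4.62 and 2.81, and Nr4a1 lower by 2.93 and 2.81, with calls in both comparisons.

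The interferon-induced genes differed between miR-7a and miR-146a. The summed level of the 38 genes was 4072 ± 859.0 CPM with miR-7a, 4182 ± 767.0 CPM with miR-29a, 2251 ± 334.3 CPM with miR-146a and 2759 ± 390.9 CPM with scramble (SD, n = 4 each). Against miR-29a 1 of 37 was called, higher with miR-7a, with a median of −0.11, where 2.27% of all genes were higher and 1.31% lower. With the replicate block 1 was higher and 4 were lower there. Against miR-146a 29 of 38 were called, all higher with miR-7a, with a median of 1.05, where 3.70% of all genes were higher and 2.53% lower. With the block 33 were higher and 0 lower. Ifi44 differed by 0.11 from miR-29a and by 3.01 from miR-146a. Among the lower genes, Cat was lower by 1.32 and 1.39 and Hgsnat by 0.84 and 1.98, with calls in both comparisons. Selenbp1 and Slc2a1 had differences from miR-29a of 0.27 and −0.00 that were not called, and were lower than with miR-146a by 1.54 and 1.08. Means with miR-29a and miR-7a were also near each other for Ccl2 (16.6 and 16.7 CPM), Pgk1 (1315 and 1329) and Hilpda (24.4 and 21.5). The same held for the summed guanylate-binding proteins (220.9 and 228.2 CPM) and immunity-related GTPases (228.0 and 236.9 CPM).

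Brox, a membrane repair factor of the ESCRT pathway on chromosome 1, could not be placed. The deposited values had lost their decimal marks, and its LPS_miR-7a values of 66156, 78534, 99353 and 108235 can be read with 2 lost decimals, as 661.6 to 1082 counts (posterior probability 0.887 to 0.888), or with 3, as 66.2 to 108.2 counts. The first reading puts the gene at 74.1 to 83.1 CPM, close to the 62.6 to 71.1 CPM of LPS_scramble, and the second far below. It was among 353 genes left out for such a value.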

How the data were processed

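Total RNA of BV-2 cells had been depleted of ribosomal RNA, sequenced and counted per gene on GRCm38 by the authors, who deposited 1 table of estimated counts for 32 libraries of 8 groups. The strand setting and the annotation release are not given in the sources used here. Groups and replicate numbers were taken from the labels. The comparison, its members and the gene lists were chosen with earlier results of these data known.

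The deposited estimated counts had lost their decimal marks: of 109458 values of at least 20000, 0.0155% end in 0 and 43.1% end in 001 or 999. Each value was read with 0 to 3 lost decimals by a model that compared it with the other libraries, and 30.5% of the 590874 values above 0 were given decimals. A reading needed a posterior probability of at least 0.9. It also had to stay the same when the model allowed groups to differ more or less. In the 8 libraries 10.0% of 160830 values failed these conditions, and over all libraries 0.0825% did in genes with a median of at least 100. The 3 libraries rich in structural RNA were restored separately.

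Genes were filtered with filterByExpr, scaled by TMM and tested with limma voom (limma 3.58.1, edgeR 4.0.16, R 4.3.3) on the libraries of the comparison, with Benjamini-Hochberg adjustment over all genes tested. Restored values were used as they are in voom and rounded for DESeq2 1.42.0. CPM values are on a TMM scale over the 32 libraries, and a log2 fold change is miR-7a minus the other group. Same-numbered libraries of LPS_miR-7a and LPS_scramble deviated together over 12485 genes (r = 0.23, 0.46, 0.29 and 0.26, and −0.10 in the mean for other pairs), so the numbers pair them, as they do for LPS_miR-146a (lowest r 0.14). Between LPS_miR-7a and LPS_miR-29a r was 0.34, 0.44, 0.08 and 0.28, and −0.10 in the mean for other pairs. Blocked results are given there too. Between VEH_miR-7a and VEH_scramble the lowest r was −0.07, with means of 0.08 for the same number and −0.03 for other pairs. The numbers were not taken as pairs under vehicle. Named genes were the 12 called genes with the highest and the 12 with the lowest fold change that reached 5 CPM, up to 4 called genes of each list, the 6 lower genes with an 8mer and the 6 genes of the LPS and vehicle contrast with the smallest p, and 10 fixed genes. Other genes were named after their values were seen, and some genes are not reported here. On simulated data for this comparison (13365 genes), 13.2%, 87.5%, 100.0% and 100.0% of genes changed by 1.5, 2, 4 and 8 times were called. Of the calls there, 2.68% were false. The shares called rest on 53, 48, 46 and 50 changed genes. Whether these values hold for the real libraries, whose same-numbered members deviated together, or for genes of low level was not tested. The 3′ UTR sites came from transcripts on GRCm38.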

Additional observations from a re-analysis of the deposited data

Results flagged for a closer look

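In 6 of 154 groups of 4 values checked, 1 library stood apart from the other 3 by Dixon's criterion, where chance gives about 5% of groups. These were the mitochondrially encoded share of LPS_scramble replicate 2 (0.967%), Nr4a1 in LPS_scramble replicate 3 (16 CPM), Fbxo36 in LPS_scramble replicate 2 (6.41 CPM), Cd164 in LPS_miR-7a replicate 1 (437.5 CPM), Eif4ebp1 in LPS_miR-7a replicate 2 (41.7 CPM) and Ccnd1 in LPS_miR-7a replicate 4 (50.9 CPM). The response of Txnip to miR-7a differed between LPS and vehicle by 2.51 on the log2 scale, by the limma test of that difference (adjusted p 1.70e-05).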

How the results depend on the processing

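Of the 69 named genes called, 23 were called under all 23 alternatives on restored values, among them Txnip, Myo18b, Nr4a1, Cat, Hgsnat and C3, and 0 changed direction there. All 69 were called with the replicate block. The 384 calls (215 higher, 169 lower) became 816 (410 and 406) with DESeq2, 255 (102 lower) with no low-count filter, 660 (357 and 303) with a GC and length correction, 2053 (964 and 1089) with the replicate block, 2095 (1049 and 1046) with the block and that correction, and 35 (20 and 15) on the values as deposited. Chosen after seeing the data, the replicate block gave 1761 (815 and 946) with limma-trend and 1930 (908 and 1022) with edgeR. Leaving out 1 library gave 64 to 387 calls, 38 to 211 higher and 26 to 176 lower.

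The 1 call for the difference between LPS and vehicle became 77 with DESeq2, 29 with the replicate block, 3 with the GC and length correction, 60 with both, 4 with no minimum posterior, 62 as deposited, 3 and 61 with the block in limma-trend and edgeR, and 1 to 143 with a library left out. The 464 calls against miR-29a became 873 with DESeq2, 1548 with the replicate block, 910 with the correction, 2341 with both, 52 as deposited, 1518 and 1479 with the block in limma-trend and edgeR, and 198 to 685 with a library left out. The 785 against miR-146a became 1361, 2605, 1198, 2454, 41, 2196 and 2289 under the same settings, and 190 to 800 with a library left out.

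The 8mer score difference was −0.349 as deposited (exact permutation p 0.0571) and −0.119 as pairs under the replicate block (exact p 0.125), and −0.135 to −0.109 with a library left out. With a library left out, the library total differed by −6.12 to −0.152 M counts, the mitochondrial share by −1.05 to −0.495 and the structural RNA share by −1.26 to −0.297 percentage points. The structural RNA share has no value without structural RNA genes. As deposited, Hgsnat (0.75), Fbxo36 (1.52), Hmox1 (1.33), Mt1 (1.29), Cebpb (1.69), Trim30a (−0.11), Atp6v0a1 (−0.35), Slc2a1 (1.38), Slc37a2 (−2.86) and Cd93 (−0.91) had the opposite sign on the log2 scale. Irs2 had a log2 fold change of 0.01 with edgeR and with DESeq2, 0.08 with the replicate block, 0.04 with both edgeR and the block, and from −0.26 to 0.20 with a library left out, above 0 without LPS_scramble replicate 4 (0.03) or LPS_miR-7a replicate 1 (0.20). The cause of these changes was not tested.

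LPS_scramble replicate 1 held 2.71 M counts, where 3 counts are 1.02 CPM, so genes near that level are imprecise in it. Of 73 named genes tested, 23 overlap a gene on the opposite strand and 11 one on the same strand, and reads of overlapping genes could not be told apart without a stated strand setting.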

Other observations

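Antigen presentation genes moved in both directions. Of 22 MHC class I and peptide loading genes tested 2 rose and 1 fell (median log2 fold change 0.12), where 1.64% of all genes rose and 1.29% fell. With the replicate block 6 rose and 3 fell, against 7.35% and 8.31% of all genes. The 2 became 0 without LPS_scramble replicate 4, 3 without LPS_miR-7a replicate 1 and 1 without any other library but LPS_miR-7a replicate 4. Tapbpl, a peptide editor related to tapasin, rose from 6.24 ± 2.24 to 18.1 ± 4.63 CPM and H2-T23, a non-classical class I gene, from 113.0 ± 16 to 200.6 ± 53.5 CPM, while H2-Q7 fell from 95.5 ± 19.3 to 51.8 ± 11 CPM (SD, n = 4 each). H2-T23 was called only without LPS_miR-7a replicate 1 among the 8 fits with a library left out, Tapbpl lost its call without LPS_scramble replicate 4, and H2-Q7 without LPS_scramble replicate 2, 3 or 4 or LPS_miR-7a replicate 3. The H2 genes have close copies and are uncertain. Cfp, the complement regulator properdin, rose from 3.50 ± 0.723 to 7.40 ± 1.03 CPM, and lost its call on leaving out any library but LPS_miR-7a replicate 4.

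Of 33 cell cycle genes 0 were called by limma in either direction, with 2 higher and 3 lower with the replicate block, where 2.93% of all genes were called without and 15.7% with the block. Of 13 genes of the G1 phase Ccnd1, cyclin D1, rose from 38.6 ± 4.66 to 61.6 ± 7.19 CPM, where the block called 1 higher and 2 lower. Ccnd1 lost its call on leaving out any library but LPS_scramble replicate 2 or LPS_miR-7a replicate 4. Of 18 genes of the ATF4 stress response 2 fell, Ddit4 and Eif4ebp1, an inhibitor of translation initiation that went from 63.7 ± 4.8 to 45.1 ± 2.26 CPM (SD, n = 4), and 4 fell with the block. Of all genes 1.29% fell, and 8.31% with the block. Eif4ebp1 lost its call on leaving out any 1 of the 8 libraries. Of 25 cholesterol synthesis genes 0 were called by limma, with 3 lower with the block, where 8.31% of all genes were lower.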
